A study of Homo sapiens with 7 samples.

Results

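The pentose phosphate pathway enzymes described here are the products of PGLS, PGD, RPE, RPIA, TKT and TALDO1. Members were chosen by gene symbol from knowledge of the pathway, and all 6 were found among the 14535 genes of the deposited table. All 6 also passed the filter on low counts, which 11230 genes passed. The cells were A549, an established epithelial line from a human lung adenocarcinoma, sorted as positive for β-galactosidase, an enzyme whose staining marks senescent cells. In 3 libraries they had received doxorubicin, a DNA-breaking topoisomerase II poison, at 100 nM for 24 h. In the other 4 libraries the treatment was cyclic stretch to 15% elongation, 15 times per min over 24 h. Both groups were stained on day 6. No untreated cells were analysed here, so each difference is stretch against doxorubicin, and the senescent sort is shared by both. The comparison sets senescence after a mechanical load against senescence after a drug. Whether each library had its own culture is not stated in the labels, and the p-values therefore rest on a spread between libraries that may be only technical.

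The pathway branches from glycolysis at glucose 6-phosphate. Its oxidative branch makes NADPH, the reducing power for glutathione recycling and lipid synthesis, and PGLS and PGD act there: PGLS opens the 6-phosphogluconolactone ring, and PGD oxidises and decarboxylates 6-phosphogluconate to ribulose 5-phosphate. The non-oxidative branch is reversible. RPIA turns ribulose 5-phosphate into ribose 5-phosphate, the sugar of nucleotides, and RPE turns it into xylulose 5-phosphate. TKT (transketolase) and TALDO1 (transaldolase) then exchange carbon units between sugars and return them to glycolysis as fructose 6-phosphate and glyceraldehyde 3-phosphate. In A549 cells the antioxidant factor NRF2 is constitutively active, and PGD, TKT and TALDO1 are among its known targets.

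The results turn on TKT and TALDO1, the enzymes of the sugar exchange, and on PGD. Their sequences before the start site are shown because the transcripts of these genes differed in how they lay between the groups. They are the 250 bases before the RefSeq start site, from the table of build GRCh38.p14, which held all 6 genes. Gene positions given below come from another annotation, GENCODE, whose starts differ. By those positions the PGD window lies wholly inside the gene, which starts at 10398592. The TALDO1 window runs past the gene start at 747329, and the TKT window, on the minus strand, past 53256052. The windows therefore lie before the RefSeq start only. Capitals mark 3 motifs searched on both strands, which may overlap: the GC box GGGCGG, the CCAAT box CCAAT and the core of the antioxidant response element, TGACNNNGC.
TKT (chr3:53256023-53256272, minus strand): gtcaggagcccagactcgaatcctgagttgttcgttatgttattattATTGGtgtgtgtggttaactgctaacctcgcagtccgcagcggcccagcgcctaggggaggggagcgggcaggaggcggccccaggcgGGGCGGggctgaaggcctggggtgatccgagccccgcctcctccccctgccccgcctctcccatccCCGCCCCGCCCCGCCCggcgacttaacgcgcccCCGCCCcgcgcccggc
TALDO1 (chr11:747214-747463, plus strand): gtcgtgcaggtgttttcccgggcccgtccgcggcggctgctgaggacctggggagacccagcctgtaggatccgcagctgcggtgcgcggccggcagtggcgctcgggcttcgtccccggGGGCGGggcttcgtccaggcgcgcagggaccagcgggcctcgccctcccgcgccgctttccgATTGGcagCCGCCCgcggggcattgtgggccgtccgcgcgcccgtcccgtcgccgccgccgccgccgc
PGD (chr1:10398814-10399063, plus strand): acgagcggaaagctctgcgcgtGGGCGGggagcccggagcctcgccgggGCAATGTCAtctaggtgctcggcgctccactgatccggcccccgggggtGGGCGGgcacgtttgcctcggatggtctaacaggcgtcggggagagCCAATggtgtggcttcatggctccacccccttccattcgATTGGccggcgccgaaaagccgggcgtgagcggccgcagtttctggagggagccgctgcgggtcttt
The TKT window held 5 GC boxes and 1 CCAAT box, the TALDO1 window 2 GC boxes and 1 CCAAT box, and the PGD window 2 of each. At least 1 GC box stood in 42.6% of 35116 windows of this length and a CCAAT box in 32% of them. The antioxidant core matched once in the PGD window, on its minus strand, starting 201 bases before the RefSeq start site. It also matched once in the RPE window, against 10.9% of all windows. Those letters were not in the TKT, TALDO1, PGLS or RPIA windows. The TATA box TATAAA was in none of the 6 windows and in 10.7% of all windows. GC content was 70.4% in the TKT window, 78.4% in that of TALDO1 and 68.4% in that of PGD. A match of letters is a description, not a binding site.

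Total counts ran from 2611766 to 4644650 in doxorubicin and from 5636494 to 7419798 in stretch. Doxorubicin libraries 1 and 2 stood apart from the others: 10.9% and 21.4% of table rows were at 0 there, against 5.10% in doxorubicin library 3 and 4.17% to 4.88% in stretch. EIF4A2, a translation initiation factor gene, took 10.8% to 30.6% of the counts in doxorubicin and 1.67% to 2.87% in stretch. Each library was made by amplifying a short piece of each transcript by PCR, without molecular identifiers, so a level is compared here between libraries and not between genes. Levels are CPM, the counts scaled to a common library size, on library sizes scaled by TMM, a method that sets the bulk of genes to no change. The TMM factors were 0.730, 0.443 and 1.14 in doxorubicin libraries 1 to 3 and 1.25 to 1.33 in stretch. A factor under 1 raises a level above the gene's share of all counts, so levels in doxorubicin libraries 1 and 2 depend strongly on this scaling. The Pearson correlation of log-CPM between libraries was 0.754 to 0.884 within doxorubicin, 0.939 to 0.978 within stretch and 0.724 to 0.941 between the groups. The closest pair across groups thus agreed better than any pair within doxorubicin. The doxorubicin means therefore join unlike libraries, while the edgeR fit used 1 spread per gene for both groups. Of the epithelial markers KRT7, KRT8, KRT18, KRT19, EPCAM and CDH1, all 6 were present, and their summed level was 3281 to 6767 CPM in doxorubicin and 2053 to 2394 CPM in stretch. KRT7 and KRT18 carried most of that difference, and KRT18 passed the test toward doxorubicin (adjusted p = 0.0199 by edgeR). EPCAM lay the other way, higher in every stretch library (log2 fold change 1.79), and KRT19 had 0.21. The 6 fibroblast markers together stood at 18.7 to 45.0 CPM and 15.5 to 16.8 CPM, and the 4 immune markers analysed (CD68, CD14, LYZ and TYROBP) at 101 to 140 CPM and 57.9 to 61.4 CPM. Most of the immune sum in doxorubicin libraries 1 and 2 was CD68, which is also a lysosomal glycoprotein. CD68 passed the test toward doxorubicin (log2 fold change -2.02, adjusted p = 0.0158 by edgeR), while CD14 and LYZ had -0.03 and 0.06. The fibroblast marker THY1 did not pass (-1.44, adjusted p = 0.089 by edgeR). It was higher in every doxorubicin library than in every stretch library. Among endothelial markers CDH5 alone was analysed, at a count of 0 in every doxorubicin library and at most 0.963 CPM in stretch. The part of these differences in the results below was not tested.

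TKT stood apart between the groups in the direction of stretch, and TALDO1 lay in the opposite direction with 1 overlapping library, but neither passed the test over all genes. None of the 6 enzymes had an adjusted p under 0.05 in the quasi-likelihood test of edgeR after Benjamini-Hochberg adjustment, while 2.32% of all tested genes did. At an unadjusted p under 0.05 there were 3 members (TKT, PGD and TALDO1), against 23.2% of all genes. DESeq2 called 1 member, TKT, where it called 9.06% of all genes, and limma-voom 0, where it called 1.66%. Stretch was the higher group for 3 members and doxorubicin for the other 3, and the log2 fold change, given throughout as stretch minus doxorubicin, had a median of 0.15 over the 6 and of 0.02 over all tested genes. In 2 of the 6, TKT and PGD, every stretch library lay above every doxorubicin library, as in 11.5% of all genes. The pathway therefore had no common direction, and the values are given enzyme by enzyme. Because these are bulk libraries, fewer cells with a transcript and less transcript per cell cannot be told apart.

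**Figure D1:**
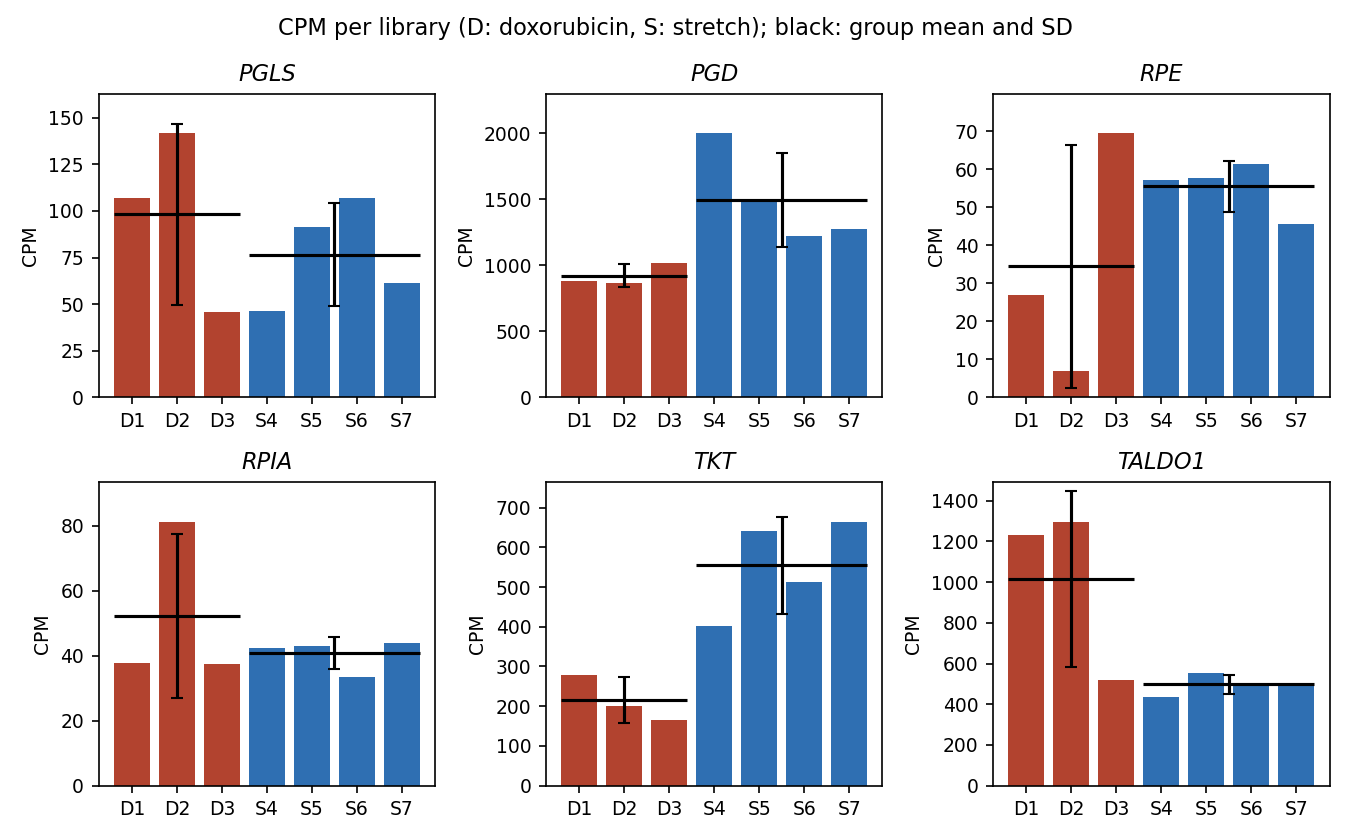
Level of each of the 6 genes in CPM (vertical axis, from 0, scaled per gene) in each library (horizontal axis: D1 to D3 doxorubicin, red; S4 to S7 stretch, blue), with black lines for the group mean and SD. TKT and PGD are above all doxorubicin libraries in the 4 stretch libraries, and TALDO1 is high in D1 and D2 but not in D3.

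In the oxidative branch, PGD (ENSG00000142657.20, chromosome 1, 10398592 to 10420144) had 878, 862 and 1020 CPM after doxorubicin (libraries 1 to 3, in this order throughout), and 2001, 1482, 1219 and 1278 CPM after stretch (libraries 4 to 7). The highest doxorubicin library was below the lowest stretch library, and stretch library 4 was the highest of all. Means were 920 ± 87.0 CPM (SD, n = 3) and 1495 ± 356 CPM (n = 4), and the log2 fold change was 0.70 (SE 0.31, 95% interval 0.02 to 1.38, adjusted p = 0.201 by edgeR). PGD varied less among doxorubicin libraries (coefficient of variation 9.46%) than among stretch libraries (23.8%), the reverse of the other 5 enzymes. Its transcripts share 13.1% of their 31-base words with the pseudogene PGDP1 in GENCODE release 29. The place of the amplified piece in each transcript is not given in the sources used here. Whether the piece of PGD, or of RPE below, lies in shared words is therefore unknown, and the PGD counts are uncertain. PGLS (ENSG00000130313.6, chromosome 19, 17511629 to 17521288) stood at 107, 142 and 45.7 CPM in doxorubicin and 46.5, 91.4, 107 and 61.4 CPM in stretch. The groups overlapped almost fully, with the lowest values of both groups, 45.7 and 46.5 CPM, side by side, and the log2 fold change was -0.35 (95% interval -1.29 to 0.59, adjusted p = 0.643 by edgeR). Without doxorubicin library 2 it was 0.02, and with doxorubicin library 3 alone 0.76. On library totals alone it was 0.60, in a setting that moved the median of all genes to 0.71.

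Of the enzymes that make the 5-carbon sugars, RPIA (ENSG00000153574.8, chromosome 2, 88691644 to 88750935) stood at 37.7, 81.3 and 37.4 CPM in doxorubicin and 42.5, 43.0, 33.4 and 44.0 CPM in stretch. On the TMM scale doxorubicin library 2 alone was high, and the other doxorubicin libraries lay inside the stretch range. That high level rests on 94 counts and on the lowest TMM factor, 0.443, so it depends on the scaling. The log2 fold change was -0.34 (95% interval -1.08 to 0.41, adjusted p = 0.572 by edgeR), and it was 0.12 without doxorubicin library 2 and 0.56 on library totals alone, again below the median of all genes there. RPE (ENSG00000197713.14, chromosome 2, 210002565 to 210022259) had 27.0, 6.92 and 69.6 CPM in doxorubicin, where the lowest value rests on 8 counts, and 57.1, 57.8, 61.4 and 45.7 CPM in stretch. The doxorubicin libraries lay on both sides of the stretch range, with a coefficient of variation of 92.7% against 12.2%. Its log2 fold change was 0.63 (95% interval -0.56 to 1.83, adjusted p = 0.497 by edgeR), 1.64 without doxorubicin library 3 and -0.31 with that library as the only doxorubicin one. RPE shares 18.0% of its 31-base words with RPEL1, an intronless copy with at most 4 counts per library, and overlaps KANSL1L on the opposite strand. How the submitters' counting treated strand is not given in the sources used here, and the RPE counts are uncertain on both grounds.

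Among the carbon exchange enzymes, TKT (ENSG00000163931.15, chromosome 3, 53224707 to 53256052) stood at 278, 201 and 165 CPM in doxorubicin and at 402, 640, 512 and 665 CPM in stretch. All 4 stretch libraries were above all 3 doxorubicin libraries. Means were 215 ± 57.7 CPM (SD, n = 3) and 555 ± 122 CPM (n = 4), a 2.58-fold difference. TKT had the largest log2 fold change of the 6, 1.37 (SE 0.33, 95% interval 0.63 to 2.11), above that of 96.3% of tested genes, with an adjusted p of 0.0567 by edgeR. It was positive in all 17 alternatives and passed in 5 of them. Adjusted p ran from 0.00022 (limma-voom with library weights) to 0.202 (edgeR without stretch library 7). The 5 settings where TKT passed called very different shares of all genes. These were 1.84% with upper-quartile factors, 1.96% without a filter, 9.06% by DESeq2, 32.2% without doxorubicin library 3 and 47% with library weights. Against doxorubicin library 3 alone, the doxorubicin library with the fewest rows at 0, the log2 fold change of TKT was 1.76. The part of library depth in the TKT difference was not tested. None of the 31-base words of TKT occurs in another gene's transcripts of the same release.

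TALDO1 (ENSG00000177156.10, chromosome 11, 747329 to 765024) stood at 1233, 1297 and 519 CPM in doxorubicin and at 436, 553, 503 and 496 CPM in stretch. On the TMM scale, doxorubicin libraries 1 and 2 were more than 2-fold above every stretch library, and doxorubicin library 3 lay inside the stretch range. Means were 1016 ± 432 CPM (n = 3) and 497 ± 47.9 CPM (n = 4), and the log2 fold change was -1.03 (SE 0.35, 95% interval -1.81 to -0.25, adjusted p = 0.124 by edgeR). Against doxorubicin library 3 alone it was -0.05. On library totals alone the log2 fold change was -0.11, in a setting that moved the median of all genes to 0.71. The TALDO1 difference on the TMM scale thus came from doxorubicin libraries 1 and 2. These had the most rows at 0 and the lowest TMM factors (0.730 and 0.443). The parts of their lower depth and of the scaling in the TALDO1 difference were not tested. Without doxorubicin library 3 the log2 fold change was -1.32, and TALDO1, TKT and RPE passed (adjusted p = 0.00269, 0.0124 and 0.0131 by edgeR), in a setting where 32.2% of all genes passed.

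**Figure D2:**
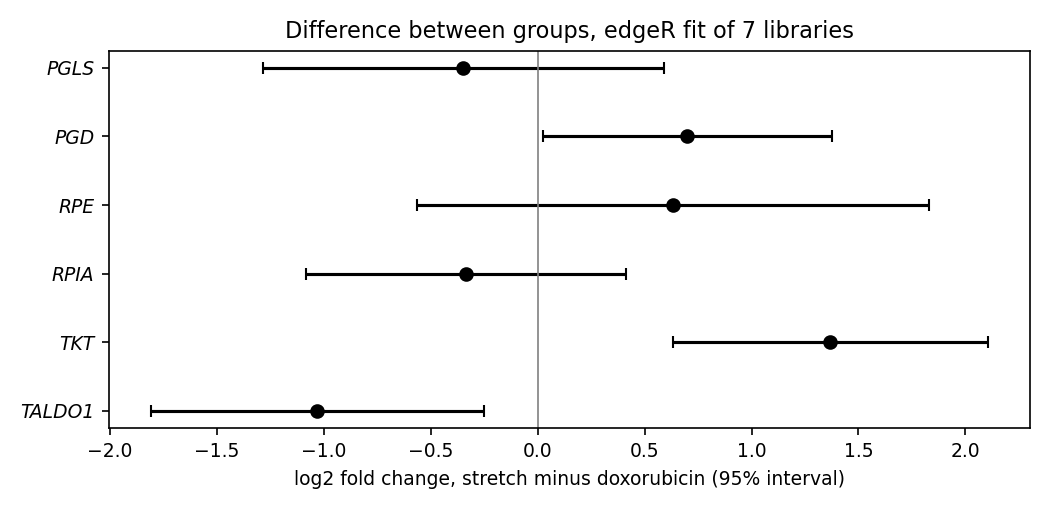
Log2 fold change of the 6 genes, stretch minus doxorubicin (horizontal axis), with bars for the 95% interval from the edgeR fit of 7 libraries. The intervals of TKT and PGD lie above 0 and that of TALDO1 below 0 before adjustment over all genes, and those of PGLS, RPE and RPIA span 0.

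Ratios of enzymes inside a library do not depend on how libraries are scaled. PGD, TKT and TALDO1 were paired for their roles in the branches, and their ratios restate the levels above without the scaling. They are also the 3 members with the lowest p, so the ratios are no separate evidence. The log2 ratio of TKT to TALDO1 was -2.15, -2.68 and -1.65 after doxorubicin and -0.12, 0.21, 0.026 and 0.42 after stretch. No doxorubicin library, library 3 included, came near the stretch range. The group means were -2.16 ± 0.52 (SD, n = 3) and 0.13 ± 0.23 (n = 4), a difference of 2.30 (log2), with an exact two-sided permutation p of 0.0286, the smallest that 35 splits allow (0.0429 after Benjamini-Hochberg adjustment over 3 ratios, 0.0857 over all 15 pairs of the 6 members). In 5 of the 15 pairs the groups did not overlap, as in 22.3% of all pairs of tested genes, so such a gap between groups was common in these libraries. The zero of the ratio has no meaning, since each amplified piece has its own efficiency. For PGD to TALDO1 the log2 ratio was -0.49, -0.59 and 0.98 in doxorubicin and 2.20, 1.42, 1.28 and 1.36 in stretch. These groups did not overlap either, although doxorubicin library 3 lay closer to stretch than to the other doxorubicin libraries (difference 1.60, exact permutation p = 0.0286, adjusted 0.0429 over 3 ratios and 0.0857 over 15). PGD to TKT was 1.66, 2.10 and 2.63 in doxorubicin and 2.31, 1.21, 1.25 and 0.94 in stretch, which overlapped (difference -0.70, exact permutation p = 0.171, adjusted 0.171 over 3 ratios).

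**Figure D3:**
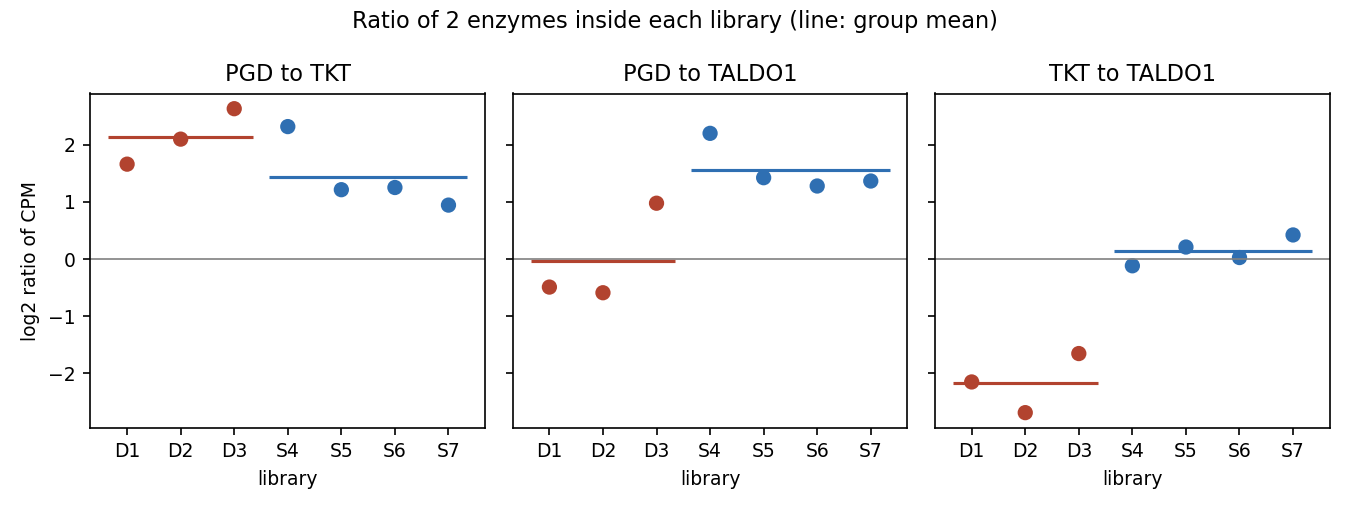
Log2 ratio of the CPM of 2 enzymes (vertical axis) in each library (horizontal axis: D doxorubicin, S stretch), with a line for each group mean. TKT to TALDO1 lies between -2.68 and -1.65 in doxorubicin and between -0.12 and 0.42 in stretch.

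Summed over the branch, the 2 oxidative enzymes, nearly all of it PGD, stood at 985 to 1066 CPM in doxorubicin and 1326 to 2048 CPM in stretch. The 4 non-oxidative enzymes stood at 791 to 1587 CPM and 938 to 1294 CPM, and all 6 at 1856 to 2591 CPM and 2436 to 2985 CPM. The sums of the non-oxidative branch and of all 6 enzymes overlapped between the groups, while the TKT to TALDO1 ratio inside the non-oxidative branch did not. A sum weights each gene by its amplification, so it is given as a description.

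The members did not follow each other across the 7 libraries. TKT and TALDO1 had a Pearson correlation of log-CPM of -0.51, and TKT and PGD 0.62. The highest among the 15 pairs was 0.73, for PGLS and TALDO1, and the lowest -0.88, for RPE and RPIA. All values share the libraries and their depth, and libraries fall into groups, so these are descriptions. Among 7500 genes with a mean of at least 10 CPM, the closest profiles to TKT were those of DENND5B, GHITM and BLVRB (r = 0.98 each over 7 libraries); BLVRB codes biliverdin reductase B, which uses NADPH. Closest to PGD were HMGCS1, an enzyme of cholesterol synthesis (0.98), TIMM17B (0.97) and SPIRE2 (0.96). RAB5B, BRD7 and SHARPIN were closest to TALDO1, at 0.995, 0.994 and 0.992. For RPE they were FAM204A, FKBP14 and SKIL (0.999, 0.997 and 0.997), for RPIA HNRNPF, BFSP1 and IPPK (0.99, 0.99 and 0.98), and for PGLS MGA, TAOK1 and RQCD1 (0.98, 0.98 and 0.97). Without doxorubicin library 2 the correlation of IPPK with RPIA was 0.80, and those of the other 17 were at least 0.927.

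The wider pathway had no gene past the threshold either. Of 15 other genes of pentose metabolism 8 were tested, and 0 passed by edgeR, DESeq2 or limma-voom. At an unadjusted p under 0.05 by edgeR there were 2, and the median log2 fold change was 0.33. For this and the lists below, 23.2% of all tested genes had an unadjusted p under 0.05 by edgeR. In 11.5% every stretch library lay above every doxorubicin library, and 5748 of 11230 genes lay on the stretch side. H6PD, the hexose 6-phosphate dehydrogenase of the endoplasmic reticulum, stood at 19.5, 49.3 and 8.70 CPM in doxorubicin and 8.14 to 13.7 CPM in stretch (log2 fold change -1.20, and 0.32 with doxorubicin library 3 alone). DERA, the deoxyribose phosphate aldolase, stood at 13.1, 9.51 and 20.04 CPM and 17.8 to 29.5 CPM, and its log2 fold change was 0.79. IDNK, a gluconokinase, had 0.89, with 2 counts in doxorubicin library 2, and PGM1, a phosphoglucomutase, 0.42. In each of these 4 genes the groups overlapped.

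The glycolytic enzymes that share sugars with the pathway were divided. Of 13 genes 8 were tested, and 0 passed by edgeR, DESeq2 or limma-voom (2 at an unadjusted p under 0.05 by edgeR, median -0.03). TPI1, which interconverts the triose phosphates, stood at 33.4, 19.0 and 107 CPM in doxorubicin and 110 to 182 CPM in stretch, with a log2 fold change of 1.46. For TPI1 the groups did not overlap, but doxorubicin library 3 lay close to the lowest stretch library. GAPDH, which oxidises glyceraldehyde 3-phosphate, stood at 21335, 55304 and 5601 CPM in doxorubicin and 6661 to 9910 CPM in stretch (log2 fold change -1.71, and 0.60 with doxorubicin library 3 alone). It has many pseudogenes, so its counts are uncertain. ALDOC and PFKM had log2 fold changes of 1.45 and 0.80, with overlapping groups.

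Among 11 other sources of NADPH and its kinases 7 were tested, 0 passed by edgeR and limma-voom and 1 by DESeq2, which called 9.06% of all genes (2 at an unadjusted p under 0.05 by edgeR), and the median was 0.60. ALDH1L2, a mitochondrial folate enzyme that makes NADPH, had 3.57, 0.865 and 2.08 CPM in doxorubicin and 3.34, 17.3, 17.3 and 14.7 CPM in stretch. Stretch library 4 lay within the doxorubicin range, and the log2 fold change was 2.49 (adjusted p = 0.0663 by edgeR, and 0.00503 by DESeq2). IDH1, the cytosolic isocitrate dehydrogenase, stood at 55.6, 6.92 and 62.2 CPM in doxorubicin and 81.8 to 102 CPM in stretch, without overlap (log2 fold change 1.11). Its mitochondrial counterpart IDH2 stood at 103, 238 and 59.4 CPM and at 53.7 to 67.02 CPM, with a log2 fold change of -1.12 and, with doxorubicin library 3 alone, 0.047. NADK2, the mitochondrial NAD kinase, had a log2 fold change of 0.9996 with overlapping groups.

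Users of NADPH had no common direction, with 7 of 15 tested genes on the stretch side and a median of -0.01. By edgeR and limma-voom 0 passed, and by DESeq2 1, BLVRB, against 9.06% of all genes (3 at an unadjusted p under 0.05 by edgeR). BLVRB stood at 239, 176 and 180 CPM in doxorubicin and 305 to 364 CPM in stretch (log2 fold change 0.78, adjusted p = 0.138 by edgeR). AKR1C1 and CBR1, carbonyl-reducing enzymes, had log2 fold changes of 1.06 and 1.001, and in both every stretch library lay above every doxorubicin library. AKR1C1 has near-identical relatives, so its counts are uncertain. TXNRD1, thioredoxin reductase, had -0.74 at levels of 2.03 to 5.67 CPM over the 7 libraries.

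Genes of purine and pyrimidine synthesis, which consume ribose 5-phosphate, gave 14 tested of 15, 10 on the stretch side, with a median of 0.22 (0 passed by edgeR, DESeq2 or limma-voom, 1 at an unadjusted p under 0.05 by edgeR). That 1 was IMPDH2, which commits purines to guanine nucleotides, at 235, 494 and 137 CPM in doxorubicin and 130 to 165 CPM in stretch. Its log2 fold change was -0.99, and 0.094 with doxorubicin library 3 alone. ADSL, ADSS and DHODH had log2 fold changes of 0.53, 0.83 and 0.63.

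NRF2 and genes of its programme were tested as a list of 12, all of them measured: 0 passed by edgeR and limma-voom and 2, GCLC and ABCC2, by DESeq2, which called 9.06% of all genes (4 at an unadjusted p under 0.05 by edgeR), 8 lay on the stretch side, and the median was 0.36. GCLC, the catalytic subunit of glutathione synthesis, stood at 28.6, 37.2 and 27.6 CPM in doxorubicin and 60.3, 69.3, 92.3 and 76.8 CPM in stretch. Its groups did not overlap, its log2 fold change was 1.27 and its adjusted p 0.0517 by edgeR. ABCC2, an export pump for glutathione conjugates, stood at 106 to 163 CPM and 191 to 380 CPM (log2 fold change 1.18, adjusted p = 0.0833 by edgeR), and PIR had 0.84, both without overlap. SRXN1, sulfiredoxin, lay the other way at -1.04, and had 0.25 with doxorubicin library 3 alone. NFE2L2, which codes NRF2 itself, had -0.50, and KEAP1, its inhibitor, 0.52. These 2 genes were named for their roles, after their values were seen. Known NRF2 targets lay on both sides of 0, among the pathway enzymes (TKT and PGD above, TALDO1 below) as in the wider list. With doxorubicin library 3 alone TKT had 1.76, PGD 0.57 and TALDO1 -0.05. Whether NRF2 activity differed between the groups was not tested.

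**Figure D4:**
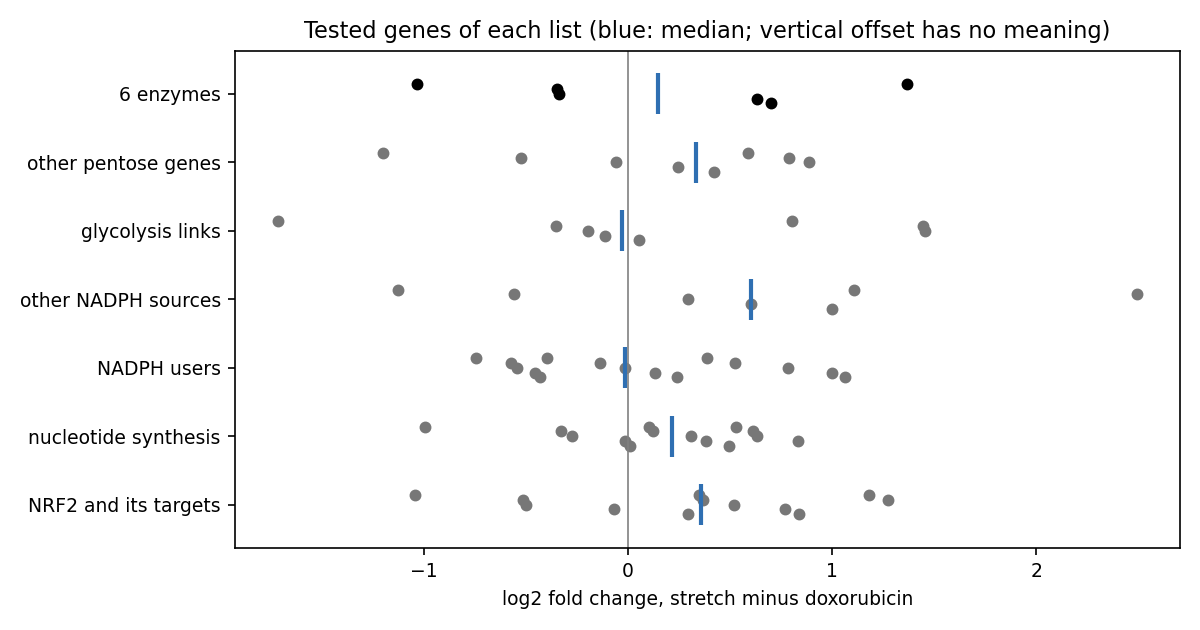
Log2 fold change, stretch minus doxorubicin (horizontal axis), of each tested gene in the 6 enzymes (black) and in 6 lists of connected genes (grey), with the median in blue. Each list spans 0, and the medians lie between -0.03 and 0.60.

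The processing moved some enzymes more than others. TKT and PGD stayed above 0 and TALDO1 below 0 under all 17 alternatives, while PGLS, RPIA and RPE changed side under at least 1. Scaling by library totals alone moved the median of all genes to 0.71, and relative to that shift PGLS, RPIA, TALDO1, SRXN1 and IMPDH2 lay below the median as they did with TMM. TALDO1 had -0.11, SRXN1 0.0044 and IMPDH2 0.028 there. Voom with library quality weights called 4 members (TKT, PGD and RPE toward stretch, TALDO1 toward doxorubicin) in a setting that called 47% of all genes. In that setting doxorubicin library 1 had a weight of 3.87, and doxorubicin libraries 2 and 3 had 0.258 and 0.204.

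**Figure D5:**
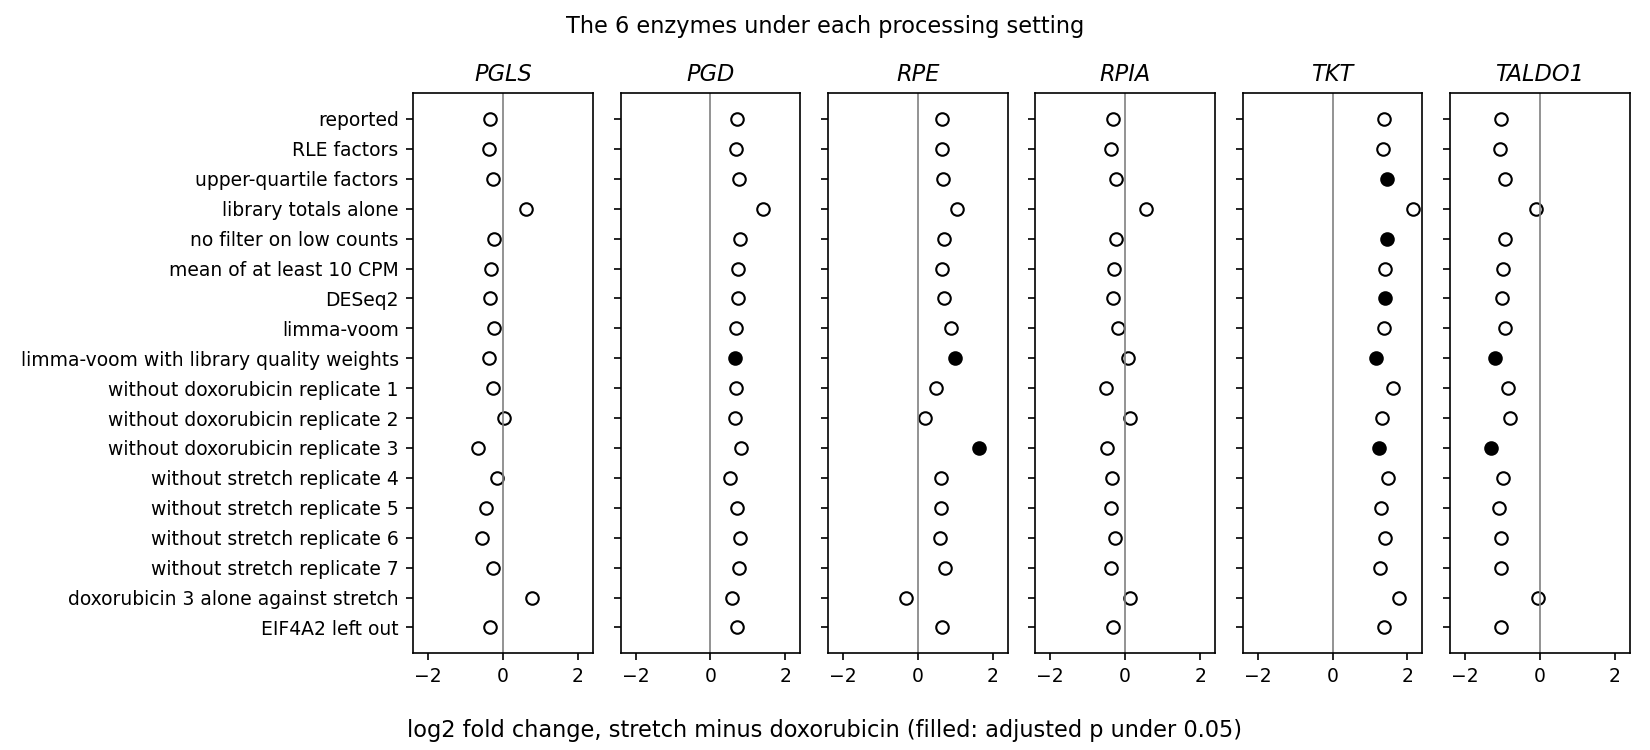
Log2 fold change, stretch minus doxorubicin (horizontal axis), of each of the 6 genes under the reported setting and 17 alternatives (vertical axis), filled where the adjusted p was under 0.05. TKT lies between 1.17 and 2.15 throughout, and TALDO1 nears 0 with doxorubicin library 3 alone and with library totals alone, where the median of all genes is 0.71.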

How the data were processed

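Gene expression was measured in 7 libraries, 3 doxorubicin and 4 stretch, grouped by sample title. The authors deposited 1 table of estimated counts as whole numbers (14647 rows). The tools were Salmon 1.9 and fastp 0.20.1, and the build GRCh38, per the submitters' processing notes. The annotation release is not given in the sources used here. Per the labels' protocols, libraries came from an Ion AmpliSeq transcriptome kit. Rows of 64 repeated symbols were summed, and Metazoa_SRP (at most 0.00861% of a library) was left out. Agreement within sampling noise was checked: chi-square per degree of freedom was at least 8.02 in all 21 library pairs.

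The whole table was fitted in R 4.3.3 with edgeR 4.0.16 (filterByExpr, TMM, robust quasi-likelihood F-test), and p-values of 11230 genes were adjusted by Benjamini-Hochberg (threshold 0.05). A standard error is the size of the log2 fold change over the root of F, and log-CPM used a prior count of 2. At 3 counts, detection stood at 0.567 to 2.59 CPM in doxorubicin and 0.321 to 0.401 CPM in stretch. On simulated counts for stretch minus doxorubicin (11126 genes tested), of 50 genes changed at each size the test recovered 6% at 2-fold, 64% at 4-fold and 96% at 8-fold, with 5 false calls among 136. The simulation gave both groups the same spread per gene, unlike the libraries here, so these rates may not hold for these data. Log2 ratios inside a library were compared by exact permutation.

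Alternatives were library totals alone, upper-quartile or RLE factors, other filters, DESeq2 1.42.0, limma 3.58.1 (voom, with and without library weights), EIF4A2 left out, and libraries left out. Ratios of all 15 member pairs were added after seeing the data. The members, lists and alternatives were chosen with earlier results of these data known. The text names all 6 members, up to 4 genes per list with the lowest p and any past the threshold, and the 3 closest profiles of each member. Results of some genes are not reported here. Promoter sequences are from RefSeq (GRCh38.p14), and gene positions and 31-base words from GENCODE release 29 on GRCh38.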

Additional observations from a re-analysis of the deposited data

Results flagged for a closer look

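In 4 of 33 sets of stretch values examined, 1 library lay far from the other 3, with a gap to the nearest library, as a share of the group's range, above Dixon's critical value; chance gives this in about 1 set in 20. RPIA stood at 33.4 CPM in stretch library 6 and at 42.5 to 44.0 CPM in the others (gap share 0.854). ALDOC stood at 17.6 CPM in stretch library 4, where the others had 2.26 to 4.76 CPM (gap share 0.837). CBR1 stood at 43.7 CPM in stretch library 7 against 40.6 to 41.1 CPM (gap share 0.84), a narrow range in all 4. The log2 ratio of PGD to TALDO1 was 2.20 in stretch library 4 and 1.28 to 1.42 in the others (gap share 0.842).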

How the results depend on the processing

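No paired analysis was possible because the doxorubicin and stretch groups share no replicate number. Of 11230 genes 261 passed, and this count was 13 on library totals alone, 143 with a mean of at least 10 CPM, 1315 by DESeq2, 5276 by voom with library weights and 99 with doxorubicin library 3 alone against stretch, where the lone library is assumed to vary like the stretch group. Leaving out 1 library gave 12 to 3736, the highest without doxorubicin library 3. The count of called members, 0, became 1 with upper-quartile factors (1.84% of all genes called), without a filter (1.96%) and by DESeq2 (9.06%). With library weights it was 4 (47%), and it was 0 to 3 when 1 library was left out. The 3 came without doxorubicin library 3 (32.2%).

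TKT had log2 fold changes of 1.45, 1.47, 1.39 and 1.17 with upper-quartile factors, no filter, DESeq2 and library weights, where it passed, and 1.24 to 1.61 when 1 library was left out. With library weights PGD had 0.66, RPE 0.999 and TALDO1 -1.20, all past the threshold, and RPIA 0.070, reversed. On library totals alone PGLS had 0.60 and RPIA 0.56, both below the median of all genes (0.71), and with doxorubicin library 3 alone PGLS had 0.76, RPE -0.31 and RPIA 0.14. Leaving out 1 library gave -0.66 to 0.022 for PGLS, 0.53 to 0.81 for PGD, 0.19 to 1.64 for RPE, -0.51 to 0.12 for RPIA and -1.32 to -0.81 for TALDO1. The cause of these changes was not tested.

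Without 1 library, the difference in the TKT to TALDO1 log2 ratio was 2.03 to 2.55 and that of PGD to TALDO1 1.32 to 2.10. Neither could then pass, since so few splits of 6 libraries exist. Among the connected genes, those that reversed were GAPDH (0.60), IDH2 (0.047), H6PD (0.32), SRXN1 (0.25) and IMPDH2 (0.094) with doxorubicin library 3 alone, and, in sign only, SRXN1 (0.0044) and IMPDH2 (0.028) on library totals alone, where the median of all genes was 0.71. Depth limits low genes in doxorubicin library 2, where RPE had 8 counts, PFKM 4, IDNK 2, and ALDH1L2 and ADSS 1 each, and most 2-fold differences would not be detected.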
